A study of Mus musculus with 23 samples.

Results

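The 35 genes described here carry glucose through glycolysis to lactate or belong to the hypoxia response, and they were chosen by symbol from the 35523 genes named in RNA-seq of mouse co-cultures. They comprise 4 glucose and lactate transporters, 9 genes of upper glycolysis, 2 regulators of it, 8 genes of lower glycolysis and 12 hypoxia-response genes. This set, and the further gene lists below, were chosen with earlier results of these data known. Counts set beside the shares of all genes are therefore descriptive. Reads were summed over all matched transcripts of each gene, and Ero1l is also named Ero1a. Pancreatic stellate cells (PSCs), mesenchymal cells of the pancreas that become fibroblasts around tumours, were cultured in Matrigel together with pancreatic tumour organoids for 3.5 days, in media labelled reduced or control, and both cell types were sequenced after sorting.

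The PSC fraction holds 8 Egfr knockout (KO) and 4 Egfr wild-type (WT) libraries. The KO lines, called clones here, are A3 and B4 of parent PSC4, each grown with the organoid lines T6-LOH, T12-LOH and T69A, and C5 and D4 of parent PSC5, each grown with T6-LOH. The WT lines carry the name Rosa in the labels, and each of the 4 co-cultures has 1 WT library. The organoid fraction holds 7 libraries grown with KO PSCs and 4 grown with WT PSCs from the same co-cultures, and the labels give no edit for the organoids. The organoids of T69A grown with clone A3 were not analysed here. The sources used here state neither strain, age and sex of the source mice nor what the letters LOH stand for. Libraries of 1 clone are not separate clones, and nothing in the labels ties each library to a culture of its own. The p-values therefore measure only the spread between these libraries. In the KO comparisons that spread includes differences between clones, and part of it may be technical.

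Glycolysis splits glucose into pyruvate and yields ATP without oxygen. Glucose enters through facilitative transporters, is phosphorylated by hexokinases, is committed by phosphofructokinase and split by aldolase, and lactate leaves the cell through monocarboxylate transporters. When oxygen is scarce, prolyl hydroxylases such as the products of Egln1 and Egln3 no longer mark the subunit HIF-1 alpha for destruction, and HIF then raises transcription of most glycolytic genes and of genes such as Bnip3, Ddit4 and Car9. Pancreatic tumours are known for dense stroma, low oxygen and high glucose use in the tumour cells.

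Egfr itself was lower in every KO PSC library than in the WT library of its co-culture. Clone A3 had 14.9, 23.1 and 23.6 TPM, a transcript level corrected for length and library size, with T6-LOH, T12-LOH and T69A, clone B4 had 24.5, 51.7 and 45.6 TPM, clone C5 had 24.3 TPM and clone D4 had 80.6 TPM, against 73.4, 72.2, 91.3 and 111 TPM in WT PSCs with T6-LOH, T12-LOH, T69A and in PSC5. Clone D4 lay within the range of WT libraries of other co-cultures, and the labels do not say which bases were altered. Each library held 21823084 to 34828131 estimated counts. The 12 fibroblast markers checked summed to 0.629 to 1.13% of TPM in KO and 0.761 to 1.29% in WT PSCs, and to at most 0.0116% in any organoid library. The 12 epithelial markers summed to 0.0177 to 0.192% of TPM in KO and 0.0373 to 0.122% in WT PSCs, and to 1.10 to 1.49% in organoids. In PSCs most of that sum was the marker Lcn2, at 847 ± 653 TPM in KO and 692 ± 392 TPM in WT PSCs (SD, n = 8 and 4). In organoids Lcn2 had 9.43 ± 9.75 TPM with KO and 12.4 ± 10.8 TPM with WT PSCs. Of the 12, 11 were called lower and 1 higher in WT PSCs than in organoids. Mitochondrial transcripts took 2.26 to 2.89% of counts in KO and 1.95 to 2.42% in WT PSCs. Their part in the results was not tested. In bulk libraries fewer cells of a type and less RNA per cell cannot be told apart.

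Both cell types carried RNA for the steps of the pathway, through partly different isozymes. The 35 genes together made up 1.70% ± 0.244 of TPM in KO PSCs and 1.98% ± 0.116 in WT PSCs (SD, n = 8 and 4), and 1.76% ± 0.132 in organoids grown with KO PSCs and 1.79% ± 0.0831 in organoids grown with WT PSCs (SD, n = 7 and 4). TPM is corrected for transcript length, so levels of different genes can be set side by side. Gapdh, the dehydrogenase in the middle of the pathway, was the most abundant, with a mean of 5588 ± 334 TPM in WT PSCs and 5812 ± 448 TPM in organoids grown with them (SD, n = 4 each). Pyruvate kinase Pkm followed with 2268 ± 139 and 2865 ± 377 TPM. In WT PSCs Eno1 (2102 ± 188 TPM), Ldha (2082 ± 274 TPM), Pgk1 (1788 ± 134 TPM) and Aldoa (1572 ± 113 TPM) came next, and Eno1 and Ldha differed by less than the SD of either. Reads of Gapdh are shared with near-identical copies, which held 12.6 to 22.6% of the reads of the gene and its copies, and for Pgk1 this share was 0.0662 to 13.0%. Tpi1 was listed at only 7.96 to 51.6 TPM and Ldhb at 0 to 23.2 TPM. The level of Ldhb is that of partial transcripts, its main transcript not being used here, and is not interpreted. A transcript with no match in the annotation stood at 708 to 1405 TPM, and the level of Tpi1, which rests on matched transcripts, is uncertain.

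PSCs and organoids of the WT co-cultures carried 22 of 35 members at different levels, shares close to those of all genes. By edgeR with co-culture as a block 11 members were higher in PSCs (against 28.8% of all genes tested) and 11 lower (against 27.3%), and Ldhb is among the 11 higher although its level is not interpreted. The neuronal-type glucose transporter Slc2a3 had 6.96, 5.39, 8.77 and 9.47 TPM in WT PSCs of the T6-LOH, T12-LOH, T69A and PSC5 co-cultures, against 0.0145, 0.0872, 0.0468 and 0.00831 TPM in the organoids (edgeR adjusted p = 0.000295). The groups did not overlap, and the organoid values rest on at most 6 estimated counts per library, so no fold is given. Its widely expressed relative Slc2a1 showed no call, at 232 ± 30.1 TPM in PSCs and 192 ± 33.7 TPM in organoids (log2 fold change 0.05, SE 0.14, edgeR adjusted p = 0.795).

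The lactate transporters went opposite ways. Slc16a1, which can import or export lactate, was higher in PSCs, at 274, 377, 349 and 186 TPM against 83.9, 107, 82.8 and 79.1 TPM in organoids (log2 fold change 1.48, SE 0.17, edgeR adjusted p = 0.00107). Slc16a3, the exporter typical of glycolytic cells, was lower in PSCs, at 58.2, 56.6, 85.2 and 144 TPM against 190.1, 175, 177 and 204 TPM in organoids (log2 fold change -1.49, SE 0.21, edgeR adjusted p = 0.00202). For both genes every PSC library lay on the same side of every organoid library.

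Among upper enzymes, PSCs held less of the aldolase Aldoc (11.0 ± 4.15 against 61.1 ± 5.99 TPM, log2 fold change -2.86, SE 0.25, edgeR adjusted p = 0.000411) and of hexokinase 1, Hk1 (log2 -0.78, adjusted p = 0.00313). They held more of the muscle-type phosphofructokinase Pfkm (log2 0.79, adjusted p = 0.0136) and less of the platelet type Pfkp (log2 -0.58, adjusted p = 0.00703), while the liver type Pfkl was not called (log2 0.26, adjusted p = 0.238). Pfkfb3, which makes the activator of phosphofructokinase, was lower in PSCs (log2 -1.28, adjusted p = 0.0165). Downstream, Eno2, the neuronal enolase, averaged 34.5 ± 2.44 TPM in WT PSCs and 0.878 ± 1.15 TPM in organoids (log2 fold change 5.93, SE 0.66, edgeR adjusted p = 0.00101). Its organoid values rest on 9, 72, 12 and 7 estimated counts in the T6-LOH, T12-LOH, T69A and PSC5 co-cultures. The size of that fold is therefore uncertain. Pgk1 (log2 0.83) and Eno1 (log2 0.39) were also higher in PSCs and Pkm was lower (log2 -0.56). Eno1 passed in 1 and Pkm in 2 of the 8 fits that left out 1 library, while Pgk1 passed in all 8. In KO co-cultures Eno1 stood at -0.069 on the log2 scale for PSCs over organoids, so its direction was not kept there.

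Hypoxia-response genes differed in both directions. The collagen prolyl hydroxylases P4ha1 (log2 2.38, adjusted p = 0.000241) and P4ha2 (log2 1.85, adjusted p = 0.00337), the mitophagy receptor Bnip3 (log2 1.98, adjusted p = 0.00194) and the oxygen sensor Egln1 (log2 1.19, adjusted p = 0.00832) were higher in PSCs. The carbonic anhydrases Car9 (log2 -4.43, adjusted p = 0.00216) and Car12 (log2 -2.21, adjusted p = 0.000435), the sensor Egln3 (log2 -2.12, adjusted p = 0.00604), the stress gene Ndrg1 (log2 -1.23, adjusted p = 0.00952) and the disulfide-forming oxidase Ero1l (log2 -1.04, adjusted p = 0.00202) were lower. Car9 stood at 0.363, 0.210, 1.14 and 0.241 TPM in WT PSCs, against 4.98, 18.0, 2.31 and 7.19 TPM in organoids, so it was low in PSCs of all 4 co-cultures. The PSC values rest on 12, 6, 12 and 7 estimated counts, so the size of its fold is uncertain.

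**Figure D1:**
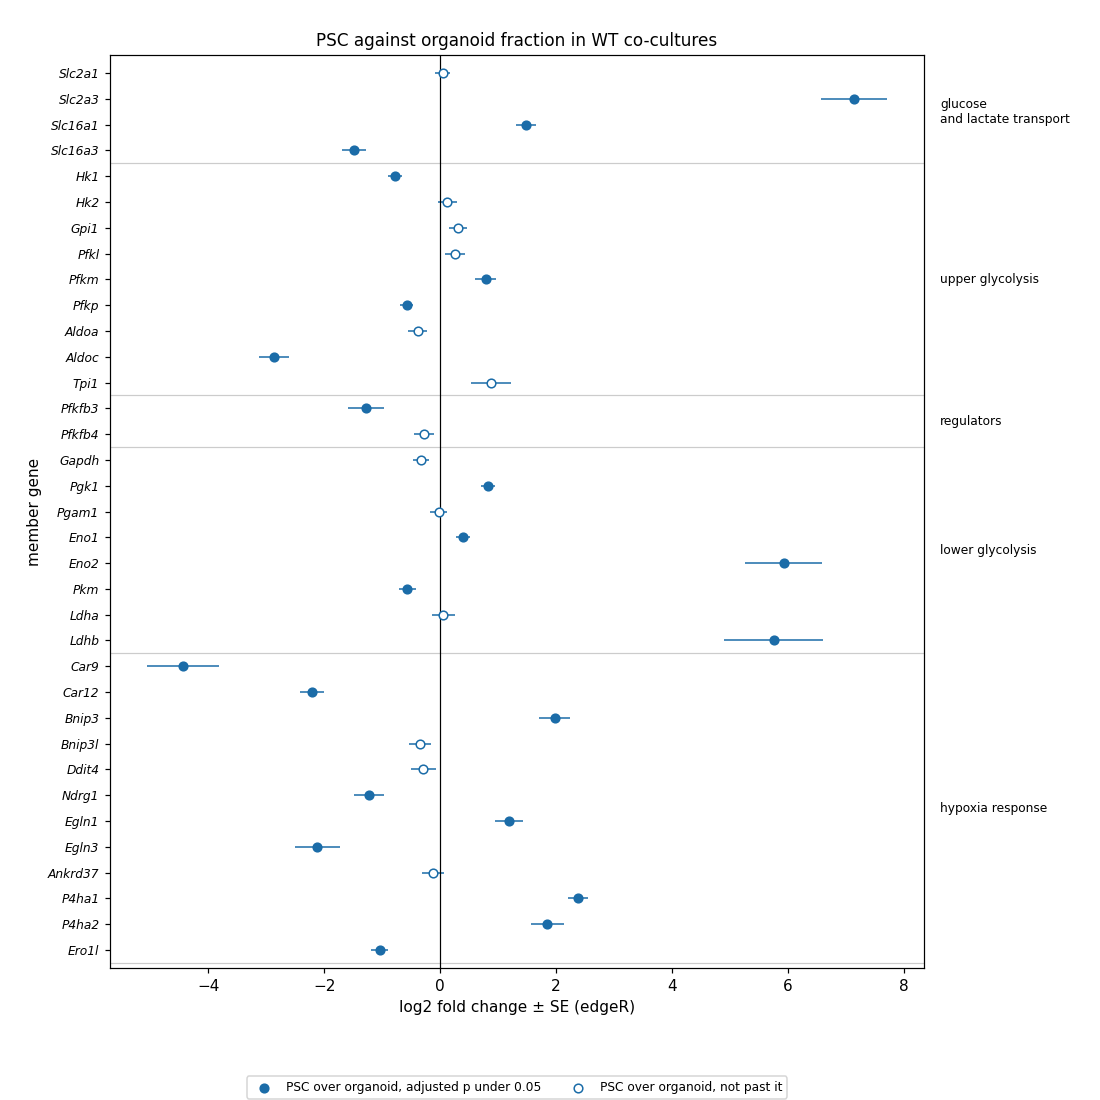
Log2 fold change of each of the 35 genes for the PSC over the organoid fraction of WT co-cultures, with the SE as a bar, grouped by role. Filled points have an edgeR adjusted p under 0.05. Ldhb is among the filled points although its level is not interpreted. Slc2a3 and Eno2 lie far to the right and Car9 and Aldoc to the left, while Slc2a1 and Ldha lie near 0.

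The first KO comparison asked what loss of Egfr did in the PSCs themselves. Of 34 members tested, 2 fell, the aldolase Aldoc and the glucose transporter Slc2a3, against 0.0425% of all genes tested that fell. By edgeR 0 members rose, against 0.0213% of all genes. At an unadjusted p under 0.05 there were 9 members lower and 1 higher, and DESeq2 called 3 lower and 0 higher. The shares of all genes above hold only for adjusted edgeR calls, so these further counts have no background beside them. The members' median log2 fold change was -0.28 and 29 of 34 were below 0, beside a median of 0.00 over all 14106 genes tested.

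Aldoc had a lowest value of 0.449, a median of 0.983 and a highest value of 2.91 TPM in KO PSCs, against 9.96 (T6-LOH with PSC4), 5.58 (T12-LOH), 13.3 (T69A) and 15.0 TPM (T6-LOH with PSC5) in WT PSCs. Every KO library was below every WT library, and the highest KO value was that of clone D4. The log2 fold change was -3.68 (SE 0.32, edgeR adjusted p = 0.0114). In KO PSCs, Slc2a3 lay between 1.23 and 3.90 TPM with a median of 1.81 TPM, against 6.96 TPM with T6-LOH, 5.39 TPM with T12-LOH, 8.77 TPM with T69A and 9.47 TPM in the PSC5 co-culture of WT PSCs. Here too the groups did not overlap, and clone A3 with T69A was the highest KO library. The log2 fold change of Slc2a3 was -2.13 (SE 0.26, edgeR adjusted p = 0.0347). Aldoc made up only 0.0844% ± 0.0609 of the aldolase TPM of KO PSCs and 0.689% ± 0.257 of that of WT PSCs (SD, n = 8 and 4), the rest being Aldoa, which had 1402 ± 154 TPM in KO and 1572 ± 113 TPM in WT PSCs (log2 fold change -0.20, SE 0.12, edgeR adjusted p = 0.478). Slc2a3 likewise made up 1.09% ± 0.392 of the summed Slc2a1 and Slc2a3 TPM in KO and 3.24% ± 0.919 in WT PSCs. Summed epithelial markers, mostly Lcn2 in PSCs, overlapped between KO and WT PSCs at the ranges given above. Over the 11 tested singly the median log2 fold change was -0.12, with 4 above 0.

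These calls depended on single libraries. Neither gene passed without WT library 17, 20 or 23 or KO library 21 or 22, and Aldoc passed alone without KO library 24 or 25. Libraries are numbered here as in their titles. Across these omissions the log2 fold change of Aldoc lay between -3.95 and -3.38 and that of Slc2a3 between -2.32 and -2.02. Neither passed without clone B4, when limma took the PSC line as random, or with counts summed per PSC line, and Aldoc passed alone without the PSC5 co-culture.

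**Figure D2:**
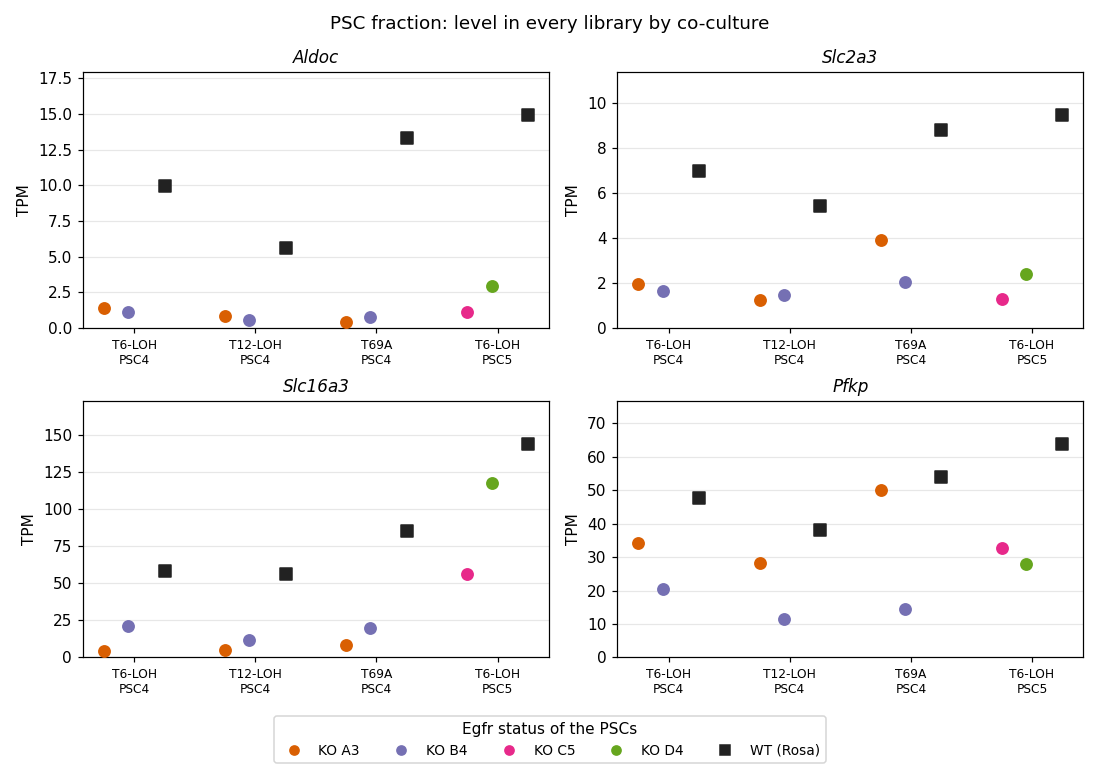
TPM of Aldoc, Slc2a3, Slc16a3 and Pfkp in each of the 12 PSC libraries by co-culture, with KO clones as circles and WT as squares to their right. For Aldoc and Slc2a3 every circle lies below every square, while for Slc16a3 clone D4 (118 TPM) lies above 3 of the 4 squares.

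The promoter of Aldoc is printed here because the gene had the largest fold change among the members. Promoter windows reach from 250 bases before to 50 after the transcript start (RefSeq, build GRCm38.p6), and capitals mark ACGTG or GCGTG on either strand, the core bound by HIF, with CACGTG holding ACGTG once on each strand. The first of its RefSeq starts lies at chr11:78322823-78323122, plus strand.

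Aldoc: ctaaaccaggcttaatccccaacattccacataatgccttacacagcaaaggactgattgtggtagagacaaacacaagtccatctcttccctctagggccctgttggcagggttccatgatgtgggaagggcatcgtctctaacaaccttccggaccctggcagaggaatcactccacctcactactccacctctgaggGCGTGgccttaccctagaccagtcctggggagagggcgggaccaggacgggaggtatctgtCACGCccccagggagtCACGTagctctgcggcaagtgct

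It holds the core 3 times in these 300 bases, once before the start and 2 times after it.

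Slc16a3 had a larger fold change than Slc2a3 but did not pass over all 12 libraries. For Slc16a3 the lowest, median and highest values were 4.39, 15.8 and 118 TPM in KO PSCs, and the values of the T6-LOH, T12-LOH, T69A and PSC5 co-cultures were 58.2, 56.6, 85.2 and 144 TPM in WT PSCs. Each KO library was below the WT library of its own co-culture, yet clone D4 exceeded the WT libraries of PSC4, and the mean and SD were 30.6 ± 39.2 TPM in KO and 86.1 ± 40.9 TPM in WT PSCs. The fit gave log2 fold change -2.36, SE 0.58, edgeR adjusted p = 0.156. Eno2 (log2 fold change -0.32, SE 0.10, edgeR adjusted p = 0.229) was below its own control in 8 of 8 KO libraries when compared in CPM (counts scaled to library size), as were Slc16a1, Gpi1, Pfkp and Pkm, and none of these passed. Ndrg1, by contrast, was below in 6 of 8 (log2 fold change -0.56, SE 0.18, edgeR adjusted p = 0.253). In clone A3 with T12-LOH the log2 difference of Slc16a1 was only -0.000344, and its TPM was 378 against 377 in the control. KO libraries of a co-culture share the same WT library. How many of all genes lay below in 8 of 8 was not counted. Hk2 stood at 74.4 ± 21.6 TPM in KO and 54.6 ± 5.16 TPM in WT PSCs (log2 fold change 0.36, SE 0.16, edgeR adjusted p = 0.359). Car9 was too low to be tested in PSCs. Among the roles, 1 of 4 transporters and 1 of 9 upper-glycolysis genes fell. For 2 regulators, 8 lower-glycolysis and 11 tested hypoxia-response genes, 0 passed the threshold, which does not show that they were unchanged. The median log2 fold change was -0.30 for lower glycolysis, with 1 gene above 0. For the hypoxia-response genes it was -0.16, with 2 above 0.

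**Figure D3:**
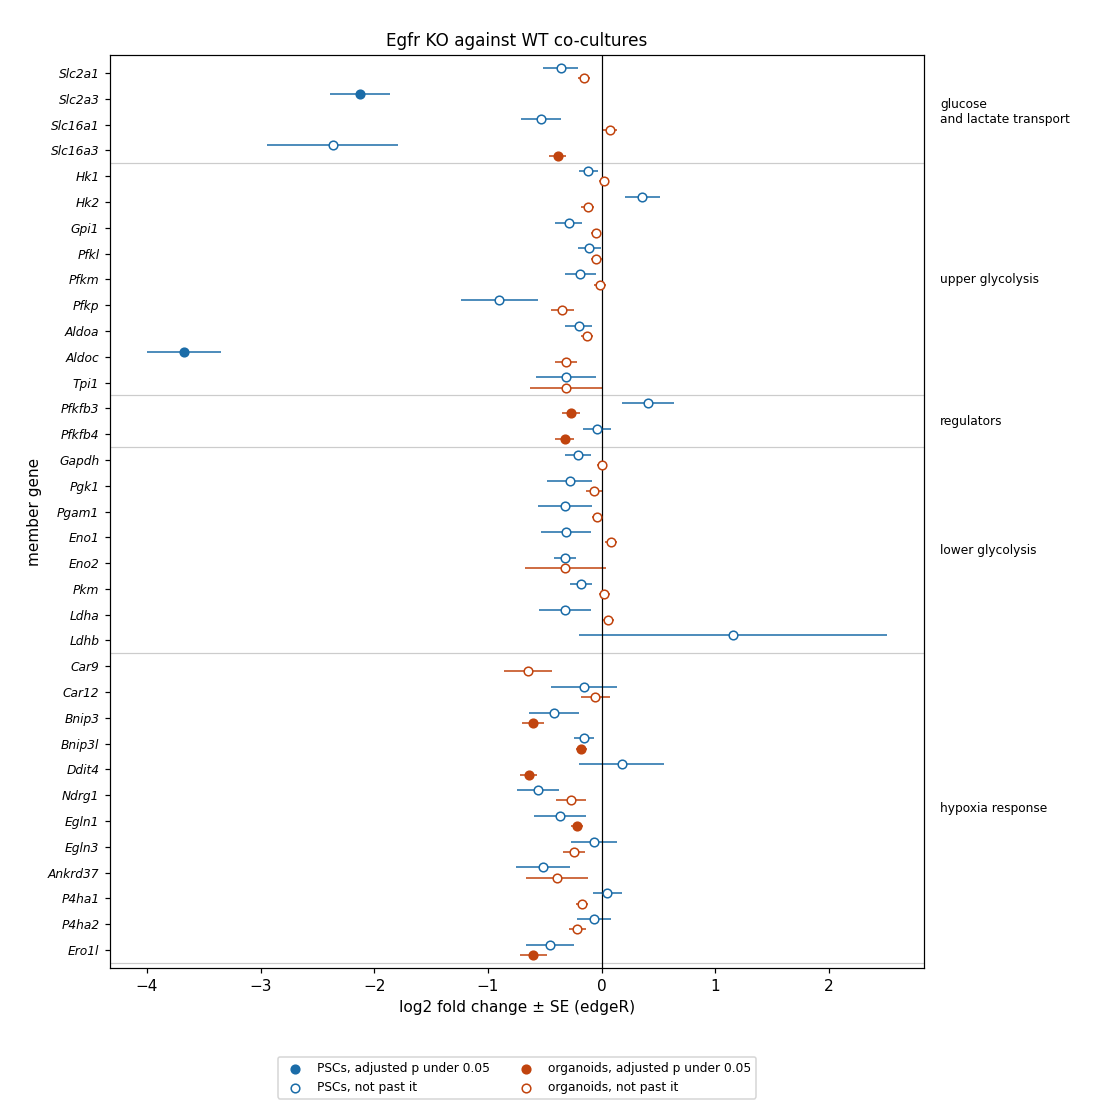
Log2 fold change with SE of each member tested for Egfr KO over WT co-cultures, in PSCs (blue) and in organoids (red), grouped by role. Filled points have an edgeR adjusted p under 0.05: Aldoc and Slc2a3 in PSCs, and 8 genes in organoids, 5 of them hypoxia-response genes.

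The KO clones of PSC4 differed from each other through most of the pathway. Clone B4 held less RNA than PSC4 Rosa for 22 of 34 members, against 24.9% of all genes tested, and more for 3, against 25.3%. Clone A3 held less for 4 of 34, against 4.06% of all genes, and more for 0, against 3.48%. For the last count 1 member was higher at an unadjusted p under 0.05 and DESeq2 called 0 higher. Both clones are set against the same 3 Rosa libraries, 1 for each organoid line, so the comparisons are not independent. In B4 all 4 transporters, 7 of 8 lower-glycolysis genes, 5 of 9 upper-glycolysis genes and 6 of 11 hypoxia-response genes were lower, and Hk2, Pfkfb3 and P4ha1 were higher.

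Values below are for the T6-LOH, T12-LOH and T69A co-cultures in this order. Both clones had little Aldoc, with 1.39, 0.820 and 0.449 TPM in A3 and 1.15, 0.527 and 0.794 TPM in B4, against 9.96, 5.58 and 13.3 TPM in Rosa. The fitted log2 fold change was -3.93 for A3 (adjusted p = 0.00105) and -3.97 for B4 (adjusted p = 7.1e-05). Slc2a3 showed 1.96, 1.23 and 3.90 TPM in A3 and 1.66, 1.47 and 2.03 TPM in B4, against 6.96, 5.39 and 8.77 TPM in Rosa. Its log2 fold change was -1.76 in A3 (adjusted p = 0.00842) and -2.46 in B4 (adjusted p = 0.000206), and no clone library reached a Rosa library for either gene. The exporter Slc16a3 fell in both clones and further in A3, with 4.39, 4.74 and 8.58 TPM in A3 and 21.0, 11.6 and 20.0 TPM in B4, against 58.2, 56.6 and 85.2 TPM in Rosa. Here the fold changes were -4.07 (adjusted p = 0.00141) and -2.09 (adjusted p = 0.000569), and the direct test of A3 against B4 gave log2 fold change -1.97, SE 0.25, edgeR adjusted p = 0.00132. Ndrg1 was the remaining member lower in A3 (log2 -0.58, adjusted p = 0.0411), and in B4 it stood at -0.96 (adjusted p = 0.000841). The A3 count was 2, Slc16a3 and Aldoc, without library 17, 20 or 21.

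In the core of the pathway clone B4 was low and clone A3 was close to Rosa. Tested directly, A3 exceeded B4 for 17 members, against 24.6% of all genes, and was below it for 7, against 24.3%. Lactate dehydrogenase Ldha, the last step to lactate, had 1953, 2242 and 2434 TPM in A3 and 1349, 1281 and 1279.8 TPM in B4, against 2142, 2142 and 2346 TPM in Rosa (log2 fold change 0.86, SE 0.10, edgeR adjusted p = 0.000314 for A3 over B4). Every B4 library lay below every A3 and Rosa library, while A3 and Rosa overlapped. The platelet phosphofructokinase Pfkp had 34.4, 28.3 and 50.1 TPM in A3 and 20.4, 11.5 and 14.4 TPM in B4, against 47.6, 38.0 and 54.1 TPM in Rosa (log2 fold change 1.36, SE 0.16, edgeR adjusted p = 0.000692 for A3 over B4). B4 was again lowest in each co-culture. Among the others, Eno1 (log2 0.82), Pgam1 (0.88) and Pgk1 (0.71), enzymes of lower glycolysis, and Bnip3 (0.85), Egln1 (0.88) and Ero1l (0.81), hypoxia-response genes, were higher in A3 than in B4 with adjusted p between 0.000206 and 0.00188. Ddit4, an inhibitor of mTORC1 signalling, went the other way, with 33.4, 45.6 and 62.8 TPM in A3 and 82.7, 191 and 123 TPM in B4, against 62.8, 53.6 and 83.8 TPM in Rosa (log2 fold change -1.37, SE 0.29, edgeR adjusted p = 0.0108 for A3 over B4). Hk2, which phosphorylates glucose, had 67.7, 66.7 and 69.7 TPM in A3 and 77.5, 94.2 and 115 TPM in B4, against 58.8, 47.2 and 57.1 TPM in Rosa (log2 fold change -0.38, SE 0.11, edgeR adjusted p = 0.0223).

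Clones C5 and D4 of PSC5 have 1 PSC library each. Ldha had 1523 TPM in C5, 1489.8 TPM in D4 and 1696 TPM in Rosa, Pfkp had 32.8, 28.0 and 63.8 TPM, and Slc16a3 had 56.7, 118 and 144 TPM. Whether the KO effect differed between PSC5 and PSC4 was tested as an interaction over all 12 PSC libraries, and 0 of 34 members passed in either direction by edgeR, against 0.0% of all genes both higher and lower. DESeq2 gave 0 as well, and at an unadjusted p under 0.05 only Ndrg1 appeared (log2 difference 0.89, adjusted p = 0.984).

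**Figure D4:**
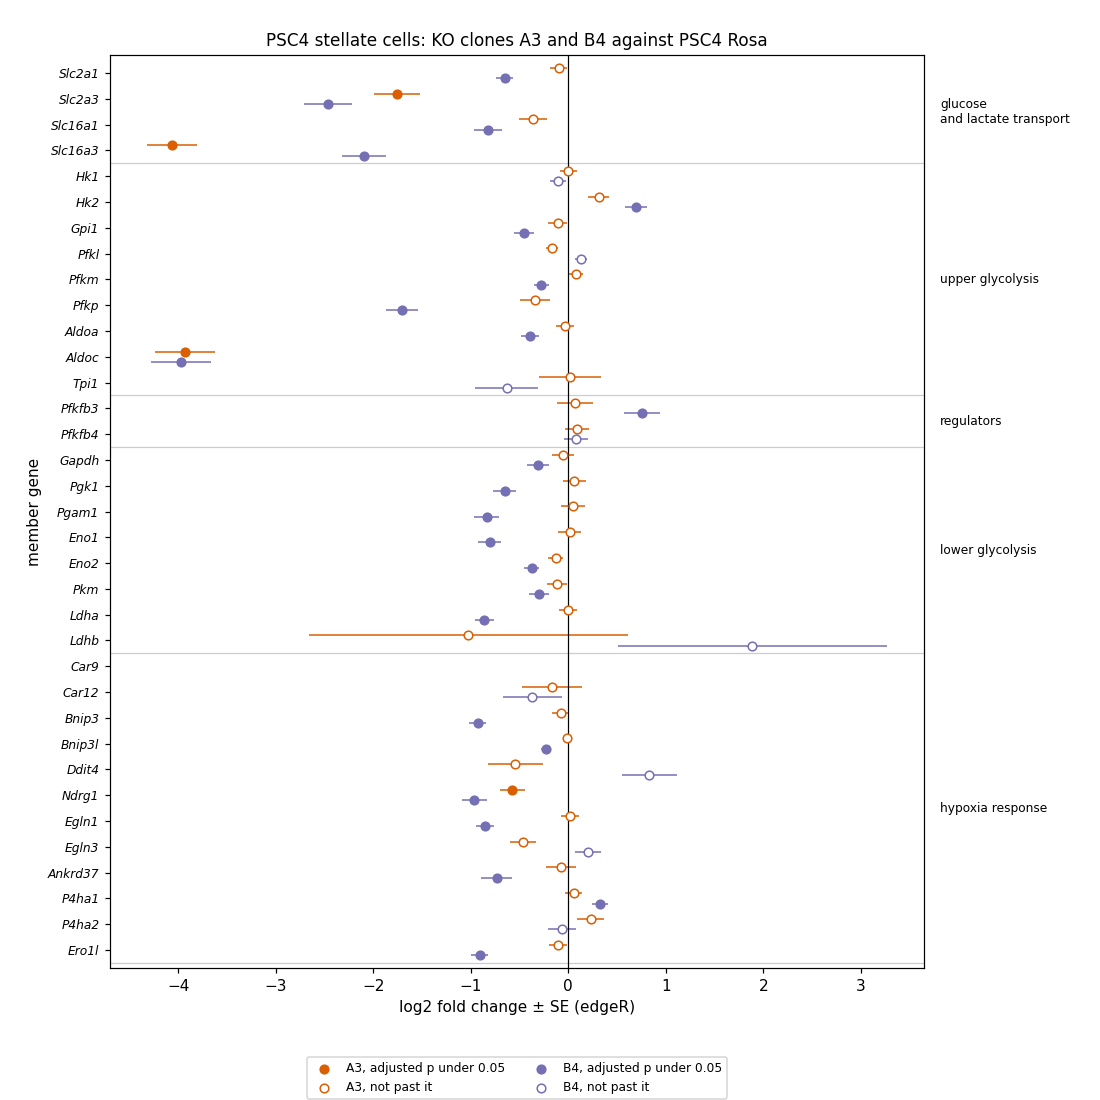
Log2 fold change with SE of each member for clone A3 (orange) and clone B4 (purple) over PSC4 Rosa, with 3 libraries per line and organoid line as a block. Filled points have an edgeR adjusted p under 0.05. Both clones lie far left for Aldoc, Slc2a3 and Slc16a3, and through lower glycolysis only the points of B4 are filled.

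The second KO comparison asked whether organoids differed when their PSC partners were Egfr KO. Organoids grown with KO PSCs had lower RNA of 8 of 33 members tested, against 6.06% of all genes, and by edgeR of 0 members higher RNA, against 4.28% of all genes. At an unadjusted p under 0.05 these counts were 16 lower and 0 higher, and DESeq2 called 12 lower and 0 higher. For these further counts no share of all genes is given, and the shares above do not apply to them. Of the 8, Ddit4, Bnip3, Ero1l, Egln1 and Bnip3l belong to the hypoxia response, Slc16a3 exports lactate, and Pfkfb3 and Pfkfb4 regulate phosphofructokinase. No enzyme of the pathway itself passed, upper or lower, and the median log2 fold change was 0.00 for lower glycolysis and -0.26 for the hypoxia-response genes, beside -0.18 for all members and -0.01 for all 13938 genes tested. Slc2a3 and Ldhb were too low to be tested in organoids.

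Ddit4, which restrains mTORC1 under stress, showed the lowest p. Ddit4 had a lowest value of 40.2, a median of 51.2 and a highest value of 61.5 TPM in organoids grown with KO PSCs, against 51.7 (T6-LOH with PSC4), 104 (T12-LOH), 64.1 (T69A) and 84.6 TPM (T6-LOH with PSC5) in organoids grown with WT PSCs. All 7 KO co-cultures were below their own control, although the groups overlapped across organoid lines. The fit gave log2 fold change -0.64, SE 0.08, edgeR adjusted p = 0.00244. Bnip3, which marks mitochondria for removal, was second. In organoids grown with KO PSCs, Bnip3 lay between 43.1 and 94.3 TPM with a median of 73.1 TPM, against 93.4 TPM with T6-LOH, 95.9 TPM with T12-LOH, 60.6 TPM with T69A and 123 TPM in the PSC5 co-culture of organoids grown with WT PSCs. The lowest libraries were T12-LOH with clone A3 (43.1 TPM), T69A with clone B4 (43.9 TPM) and T12-LOH with clone B4 (47.3 TPM), and all 7 lay below their own control (log2 fold change -0.60, SE 0.10, edgeR adjusted p = 0.0086).

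The oxidase Ero1l, which drives disulfide formation in the endoplasmic reticulum, was lower as well. For Ero1l the lowest, median and highest values were 90.0, 171 and 235 TPM in organoids grown with KO PSCs, and the values of the T6-LOH, T12-LOH, T69A and PSC5 co-cultures were 263, 190.2, 186 and 264 TPM in organoids grown with WT PSCs. All 7 were below their own control, most in T12-LOH with 90.0 and 94.6 TPM, and least with clone C5 at 235 TPM (log2 fold change -0.60, SE 0.12, edgeR adjusted p = 0.0214). In organoids grown with KO PSCs, Slc16a3 lay between 98.1 and 202 TPM with a median of 149 TPM, against 190.1 TPM with T6-LOH, 175 TPM with T12-LOH, 177 TPM with T69A and 204 TPM in the PSC5 co-culture of organoids grown with WT PSCs. Clone C5 again gave the smallest difference, with 202 TPM against 204 TPM in its control (log2 fold change -0.39, SE 0.08, edgeR adjusted p = 0.0146). Smaller differences passed for the oxygen sensor Egln1 (log2 -0.21, adjusted p = 0.0253), the Bnip3 relative Bnip3l (log2 -0.18, adjusted p = 0.0384), Pfkfb4 (log2 -0.33, adjusted p = 0.0284) and Pfkfb3 (log2 -0.27, adjusted p = 0.0459). In T12-LOH the log2 CPM difference of Bnip3 from the own control was -1.05 with A3 and -0.90 with B4, and in the other co-cultures it lay between -0.65 and -0.28. A difference in KO effect between organoid lines was not tested.

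**Figure D5:**
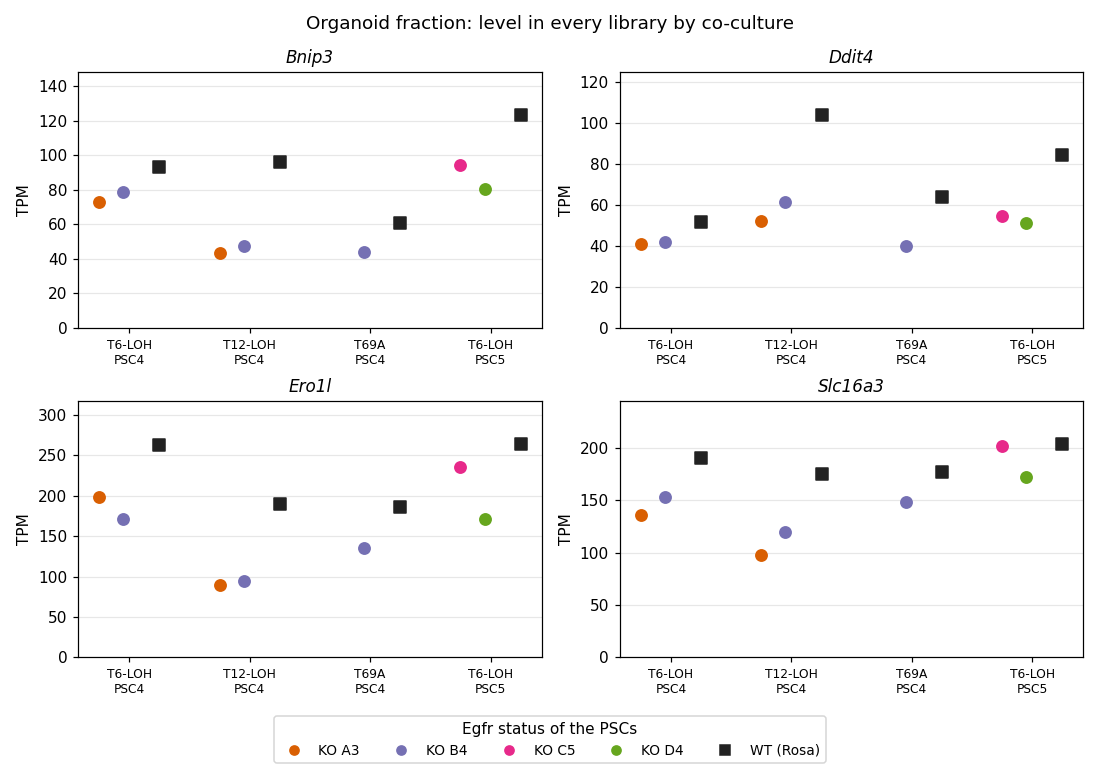
TPM of Bnip3, Ddit4, Ero1l and Slc16a3 in each of the 11 organoid libraries by co-culture, with organoids grown with KO clones as circles and those grown with WT PSCs as squares to their right. Within each co-culture every circle lies below the square, with the widest gaps for Bnip3 and Ero1l in T12-LOH.

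Several members stood just outside the threshold in organoids and were below their own control in CPM in 7 of 7 libraries, among them Aldoc (log2 -0.31, adjusted p = 0.0627), Pfkp (-0.35, adjusted p = 0.0646), Slc2a1 (-0.16, adjusted p = 0.0674), Car9 (-0.65, adjusted p = 0.0777) and P4ha1 (-0.17, adjusted p = 0.0551). With T69A and clone B4 the difference of Slc2a1 was only -0.00363. How many of all genes lay below in 7 of 7 was not counted. Ldha had 1764 ± 359.6 TPM in organoids grown with KO PSCs and 1707 ± 279 TPM in organoids grown with WT PSCs (log2 fold change 0.06, SE 0.05, edgeR adjusted p = 0.498). Of 7 fibroblast markers tested in the organoid fraction 4 fell, Col1a1, Col3a1, Sparc and Vim. The median log2 fold change of the 7 was -1.19, with 0 above 0. The summed level over 12 fibroblast markers was 0.00048 to 0.00901% of TPM with KO PSCs and 0.00106 to 0.0116% with WT PSCs, with 1 of the 12 at 0 in every KO library, against 0.629 to 1.29% in PSC libraries. In organoids most of that sum was the marker Fn1, at 24.9 ± 33.7 TPM with KO and 34.8 ± 48.5 TPM with WT PSCs (SD, n = 7 and 4). The overlap of the summed ranges therefore mainly describes Fn1. Among the 8 members that fell, Bnip3 and Egln1 were higher in WT PSCs than in organoids, and Slc16a3, Ero1l and Pfkfb3 were lower. Of 2 immune markers tested 1 fell, Cd68 (18.9 ± 4.03 TPM with KO and 27.6 ± 4.00 TPM with WT PSCs, log2 -0.57, edgeR adjusted p = 0.00215). In PSCs Cd68 had 9.13 ± 3.01 TPM in KO and 9.49 ± 2.42 TPM in WT libraries. The other immune markers were near 0 in organoids with KO and WT PSCs. Ptprc had 0.343 and 0.379 TPM, Cd79a 0.267 and 0.349 TPM, Adgre1 0.00596 and 0.00878 TPM, and Cd3e 0 in both. The part of remaining PSCs or other cells in these differences was not tested.

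The count rested on particular libraries and on the block. It was 2 without WT library 14, 4 without WT library 2 or 10 or KO library 4, 11 or 16, and 5 without KO library 7 or 15. Ddit4 passed in each of these 11 omissions, Bnip3 in 10 and Slc16a3 in 9. Without the T12-LOH co-culture 3 passed (Slc16a3, Bnip3 and Ddit4), without clone B4 the count was 4, and without co-culture as a block it was 0.

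The promoters of the 4 members with the lowest p in organoids are given because these genes were lower together. They lie at chr7:138909457-138909756, minus strand (Bnip3), chr10:59951721-59952020, minus strand (Ddit4), chr14:45318523-45318822, minus strand (Ero1l) and chr11:120948817-120949116, plus strand (Slc16a3), in the same build and with the same letters in capitals as for Aldoc.

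Bnip3: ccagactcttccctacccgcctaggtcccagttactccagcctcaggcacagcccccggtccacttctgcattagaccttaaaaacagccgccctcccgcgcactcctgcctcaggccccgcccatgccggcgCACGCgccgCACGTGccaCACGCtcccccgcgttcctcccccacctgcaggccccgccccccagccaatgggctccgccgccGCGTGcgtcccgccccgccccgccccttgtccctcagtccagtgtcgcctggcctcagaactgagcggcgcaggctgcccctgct

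Ddit4: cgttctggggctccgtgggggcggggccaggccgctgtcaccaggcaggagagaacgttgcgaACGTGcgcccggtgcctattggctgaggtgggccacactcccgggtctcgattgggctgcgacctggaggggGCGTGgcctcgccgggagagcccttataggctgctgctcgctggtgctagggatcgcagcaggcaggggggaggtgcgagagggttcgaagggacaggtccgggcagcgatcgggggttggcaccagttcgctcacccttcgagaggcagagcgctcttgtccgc

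Ero1l: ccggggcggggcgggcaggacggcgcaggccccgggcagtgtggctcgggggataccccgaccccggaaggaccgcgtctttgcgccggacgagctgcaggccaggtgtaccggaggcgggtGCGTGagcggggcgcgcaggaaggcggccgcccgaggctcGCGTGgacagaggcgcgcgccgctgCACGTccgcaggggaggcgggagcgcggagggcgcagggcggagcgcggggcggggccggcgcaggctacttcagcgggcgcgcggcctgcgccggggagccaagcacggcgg

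Slc16a3: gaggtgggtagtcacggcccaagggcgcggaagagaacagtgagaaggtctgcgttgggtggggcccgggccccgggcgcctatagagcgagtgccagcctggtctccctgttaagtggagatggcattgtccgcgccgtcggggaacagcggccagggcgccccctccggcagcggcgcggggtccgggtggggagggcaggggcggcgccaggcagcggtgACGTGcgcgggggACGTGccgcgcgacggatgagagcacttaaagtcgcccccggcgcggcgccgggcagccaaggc

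The core occurs 5 times in the Bnip3 window, 2 times in that of Ddit4, 3 times in that of Ero1l and 2 times in that of Slc16a3, overlapping strands counted separately. Of the 32 members with a RefSeq promoter, 28 (87.5%) hold it in at least 1 promoter, against 46.7% of 27025 genes. By promoter the shares are 36 of 44 (81.8%) against 43.8% of 32851. The windows of Eno2, Tpi1, Gpi1 and Car12 hold none of these letters. A match is a description of the sequence and not evidence of binding.

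Whether the KO effect differed between PSCs and organoids was tested over all 23 libraries, and 1 of 35 members passed, Aldoc, against 0.225% of all genes in this direction, while 0 passed in the other, against 0.315%. DESeq2 called 2 and 0, and unadjusted p under 0.05 gave 4 and 2, without shares of all genes beside them. Aldoc differed by -3.30 on the log2 scale (SE 0.33, edgeR adjusted p = 0.000425), its own effects being -3.68 in PSCs and -0.31 in organoids. In organoids Aldoc had 52.0 ± 12.5 TPM with KO PSCs and 61.1 ± 5.99 TPM with WT PSCs (SD, n = 7 and 4), so the fraction with the higher level showed the smaller difference. Slc2a3 came next (-2.21, adjusted p = 0.0952) and passed by DESeq2 or when KO library 18 was left out, for a count of 2. For Slc16a3 (-1.95, adjusted p = 0.168), Slc16a1 (-0.61, adjusted p = 0.168) and the hypoxia-response genes the difference between fractions did not pass. Bnip3, for example, was at -0.42 in PSCs (adjusted p = 0.438) and -0.60 in organoids (adjusted p = 0.0086), which does not show that the effects differ.

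The organoid lines differed from each other in many genes, and the members' counts were near the shares of all genes except for the lower ones in T12-LOH. T12-LOH differed from T6-LOH in 25 of 33 members when both were grown with PSC4 lines, 9 higher (against 31.2% of all genes) and 16 lower (30.8%), and T69A in 18, 8 higher (25.4%) and 10 lower (26.0%). Fibroblast markers moved too in these comparisons, with 3 of 8 called higher and 0 lower in T12-LOH (median log2 1.00) and 6 of 8 higher and 0 lower in T69A (median log2 2.51). The 1 endothelial marker tested, of 4 listed, was called higher in T12-LOH (log2 5.95), but these markers were near 0. The 4 summed to at most 8.42e-05% of TPM in organoids with KO PSCs and 9.56e-05% with WT PSCs. The part of remaining PSCs or other cells in the members' differences was not tested. Values are given for organoids grown with A3, B4 and Rosa in this order, the A3 library of T69A not being among them. Car9, which exports acid at the cell surface, had 10.9, 14.4 and 18.0 TPM in T12-LOH and 2.10 and 2.31 TPM in T69A, against 2.60, 5.44 and 4.98 TPM in T6-LOH. It was higher in T12-LOH (log2 fold change 1.72, SE 0.13, edgeR adjusted p = 1.9e-06) and lower in T69A (log2 fold change -1.29, SE 0.17, edgeR adjusted p = 0.000172). Egln3 had 55.3, 70.9 and 98.1 TPM in T12-LOH and 135 and 129.6 TPM in T69A, against 198, 186 and 214 TPM in T6-LOH, lower in both (log2 -1.51 and -0.58, adjusted p = 0.000233 and 0.0304). For Car9 and Egln3 no library of T12-LOH overlapped one of T6-LOH. Ndrg1 had 142, 148 and 249.6 TPM in T12-LOH and 88.0 and 108 TPM in T69A, against 324, 292 and 326 TPM in T6-LOH, also lower in both (log2 -0.91 and -1.67).

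Upper and lower enzymes shifted in T12-LOH, where Aldoa (log2 -0.70), Pfkl (-0.55), Gpi1 (-0.50), Pfkm (-0.57) and Ldha (-0.59) were lower than in T6-LOH, all with an adjusted p of at most 7.3e-05. Hk2 (0.60), Pfkfb3 (0.44), Slc16a1 (0.46) and Pkm (0.36) were higher, with an adjusted p of at most 0.000473. In T69A, P4ha2 (-1.33), Bnip3l (-0.71) and Egln1 (-0.75) were lower and Pfkfb3 (0.72) and Pkm (0.55) higher than in T6-LOH, with an adjusted p of at most 0.000122. The T69A count was 10 without KO library 4 or 8. DESeq2 moved the median of all genes to 0.113 for T12-LOH over T6-LOH.

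PSC levels also differed with the organoid partner. PSC4 lines grown with T12-LOH differed from the same lines grown with T6-LOH in 7 of 34 members, 5 higher (against 8.37% of all genes) and 2 lower (9.4%). With T69A 5 were higher (2.84%) and by edgeR 0 lower (1.56%), 0 lower also by DESeq2 and at an unadjusted p under 0.05. Ankrd37, a small hypoxia-induced ankyrin protein, had 22.9, 18.0 and 29.8 TPM in A3, B4 and Rosa with T12-LOH and 29.4, 22.3 and 29.6 TPM with T69A, against 10.3, 7.15 and 11.5 TPM with T6-LOH. Each line was lowest with T6-LOH (log2 1.41, adjusted p = 0.00195 with T12-LOH, and 1.44, adjusted p = 0.0169 with T69A). Slc2a1 (log2 0.67 and 0.48) and Eno2 (0.40 and 0.40) were higher with both partners, Slc16a1 (1.01) and Pfkl (0.33) with T12-LOH, and Egln3 (1.03) and Bnip3 (0.44) with T69A. Pfkfb3 (-0.79) and Car12 (-1.33) were lower with T12-LOH. The T69A count was 0 without library 17, 18, 19 or 21, 1 without 22, 2 without 24 and 3 without 20, and the T12-LOH count was 3 without library 21. With T69A 5 of 11 epithelial markers were called higher and 0 lower (median log2 1.61), the cadherin Cdh1 having 2.97, 4.38 and 4.41 TPM in A3, B4 and Rosa with T69A, against 0.700, 0.641 and 0.841 TPM with T6-LOH. With T12-LOH 9 of 12 fibroblast markers were called lower and 2 higher (median log2 -0.86). Of the 5 members higher in PSCs with T69A, Egln3 had more RNA in organoids than in PSCs of the WT co-cultures. Eno2 and Bnip3 had more in PSCs there, and Slc2a1 and Ankrd37 were not called between the fractions. The part of remaining organoid cells in these differences was not tested. The T12-LOH and T69A comparisons share the T6-LOH libraries.

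PSC5 lines differed from PSC4 lines, all grown with T6-LOH, in 0 of 34 members by edgeR, against 0.0145% of all genes higher and 0.0% lower, in 0 by DESeq2, and in 1 higher and 1 lower at an unadjusted p under 0.05. The largest difference was that of Slc16a3 (log2 fold change 2.31, SE 0.74, edgeR adjusted p = 0.344). T6-LOH organoids grown with PSC5 lines had more Hk2 (log2 0.45, adjusted p = 0.0209), Pfkfb3 (0.51, adjusted p = 0.0249), P4ha1 (0.35, adjusted p = 0.0333) and Ddit4 (0.45, adjusted p = 0.0333) than those grown with PSC4 lines, against 0.366% of all genes higher, and 0 members lower, against 0.381%. For lower members DESeq2 gave 0 and an unadjusted p under 0.05 gave 1. Hk2 had 49.4, 42.6 and 50.3 TPM with C5, D4 and PSC5 Rosa, against 37.8, 32.4 and 38.0 TPM with A3, B4 and PSC4 Rosa, with no overlap. The count was 0 without library 7, 1 without 6 or 15 and 2 without 14.

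Isozyme shares of TPM were tested for 13 pairs or triplets by a 2-sided exact permutation test within co-cultures, over 81 assignments in PSCs and 54 in organoids, with adjustment over the 13 shares of a fraction. The smallest p this allows is 0.0123 in PSCs and 0.0185 in organoids, and 0 shares passed after adjustment in either fraction, with 4 in PSCs and 5 in organoids at an unadjusted p under 0.05. Alone, a share at that smallest p could not pass the adjustment, so these counts cannot show that shares were unchanged. The assignments also treat libraries of 1 PSC line in different co-cultures as separate. Hexokinase 2 made up 51.0% ± 7.97 of hexokinase 1 and 2 in KO PSCs and 42.7% ± 2.89 in WT PSCs, above its own control in 8 of 8 libraries (exact permutation p = 0.037, adjusted p = 0.16). The Slc2a3 and Aldoc shares given above were below their own control in 8 of 8 (exact permutation p = 0.0123 each, adjusted p = 0.0802). In organoids Slc16a3 made up 60.6% ± 9.50 of both lactate transporters with KO PSCs and 67.9% ± 4.28 with WT PSCs, lower in 7 of 7 libraries (exact permutation p = 0.0185, adjusted p = 0.0963). Bnip3l made up 80.8% ± 2.49 of Bnip3 and Bnip3l with KO PSCs and 75.7% ± 1.09 with WT PSCs, higher in 7 of 7 (exact permutation p = 0.0185, adjusted p = 0.0963). Phosphofructokinase was mostly the liver type, with Pfkl at 73.6% ± 6.84 in KO and 68.8% ± 2.90 in WT PSCs. Pkm was mostly spliced as M2, the form of growing cells, since the M1 transcript made up 9.29% ± 2.69 of both in KO and 10.7% ± 2.73 in WT PSCs, and 11.9% ± 1.49 in organoids grown with KO and 11.9% ± 1.40 in those grown with WT PSCs (SD, n = 8, 4, 7 and 4).

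Beyond the 35 genes, further genes of both pathways were read from lists chosen for this purpose, with earlier results of these data known. In PSCs 0 of 20 other glycolysis genes, 0 of 30 other HIF and hypoxia genes and 0 of 4 glucose-sensing genes tested passed in the KO comparison by edgeR, with 1, 3 and 1 higher and 3, 8 and 0 lower at an unadjusted p under 0.05 and with median log2 fold changes of -0.09, -0.18 and 0.26. In organoids grown with KO PSCs 7 of 28 other hypoxia genes fell (against 6.06% of all genes) and 1 rose (against 4.28%), with a median of -0.18. Vegfa, the main angiogenic factor, averaged 171 ± 39.9 TPM with KO and 262 ± 74.8 TPM with WT PSCs (log2 fold change -0.67, SE 0.08, edgeR adjusted p = 0.00344), and the haem oxygenase Hmox1 (log2 -0.47) and the adenylate kinase Ak4 (-0.25) also fell, while the secreted factor Stc2 rose (0.24). Of 23 other glycolysis genes, read against the same shares, 3 fell, Gys1 (log2 -0.31), Pgm1 (-0.25) and Bsg (-0.20), which act in glycogen synthesis, in sugar phosphate exchange and as the partner of the lactate transporters, and 1 rose, Fbp2 (0.31), an enzyme of gluconeogenesis. Of 5 glucose-sensing genes 0 passed in organoids by edgeR, with 1 at an unadjusted p under 0.05.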

How the data were processed

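RNA-seq of sorted PSC and organoid fractions was analysed from 23 deposited transcript tables. Per the submitters' processing notes, the tools include Salmon 1.9.0 and the build is GRCm39. The deposited tables give estimated counts and TPM per transcript, the TPM being scaled by the authors' quantification to the effective transcript length and the library size. Of 117135 transcripts 115973 (99.0%) were matched by identifier to a GENCODE annotation, used for names only, and unmatched transcripts held 0.364 to 0.443% of counts and entered no test.

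Counts were summed per gene and rounded. Each comparison was fitted over all genes with edgeR 4.0.16 (R 4.3.3, TMM factors, low-count filter by group, robust quasi-likelihood test), with co-culture, organoid line or PSC line as a block, and Benjamini-Hochberg adjustment at 0.05. SEs are the fold change over the root of the F statistic. DESeq2 1.42.0 and limma 3.58.1 served as alternatives, with other factors, no filter, a transcript length offset and omitted libraries, lines or co-cultures. The fitting was tested on simulated data. Shares of all genes refer to edgeR calls at the adjusted threshold, and none are given for unadjusted p or for DESeq2. Own-control differences are log2 CPM with 0.5 added. Isozyme shares were taken from TPM. Copies of a gene were transcripts sharing at least 50% of their 31-base words.

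Libraries were grouped by their labels. The gene set and all lists were chosen with earlier results of these data known. Members were open to naming, with statistics for those past the threshold or, where fewer than 4 passed, the 4 smallest p; of other pathway genes at most 4 per list were named. Statistics of further members were added after their values were seen. Depth was 21823084 to 34828131 estimated counts per library. Aldoc held only 10 to 67.1 estimated counts in KO PSC libraries. The parts of depth and of the number of libraries in the precision were not tested.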

Additional observations from a re-analysis of the deposited data

Results flagged for a closer look

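Of 140 groups of 4 to 8 libraries checked, 13 held a library far from the others by Dixon's criterion, which chance gives in about 1 group in 20. In KO PSCs these were Slc2a3 at 3.9 TPM in library 18, P4ha2 at 174 TPM in the same library, and Slc16a3 at 118 TPM, Aldoc at 2.91 TPM and Ldhb at 23.2 TPM in library 28, that of clone D4. In WT PSCs they were Gpi1 at 535 TPM in library 20 and Car9 at 1.14 TPM in library 17. In organoids grown with KO PSCs the value was Eno2 at 1.01 TPM in library 11. In organoids grown with WT PSCs they were Slc16a1 at 107 TPM, Gpi1 at 334 TPM, Pfkm at 18.0 TPM and Eno2 at 2.59 TPM in library 10, the T12-LOH organoids, and Ldhb at 0.0593 TPM in library 6.

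The KO effect on Aldoc differed between PSCs and organoids by -3.30 on the log2 scale, by the interaction test of the report.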

How the results depend on the processing

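Of 1929 alternative values of called members, 1639 kept direction and call, 289 kept the direction only and 1 reversed, Eno1 for PSCs over organoids in KO co-cultures (-0.069). The 2 members called in KO PSCs were 0 without the T69A co-culture, with PSC line as a random effect, with counts summed per PSC line and without clone B4 (chosen after seeing the data), and 1 without the PSC5 co-culture. The 8 called in organoids were 4 with a transcript length offset, 0 without the co-culture block, 5 without the T69A co-culture, 3 without the PSC5 co-culture, and, chosen after seeing the data, 4 without clone B4 and 3 without T12-LOH. DESeq2 gave 2 for the difference between fractions, 11 for PSCs with T12-LOH and 8 for PSCs with T69A. The length offset gave 0 for T6-LOH organoids with PSC5 lines. Leaving out 1 library in turn gave 0 to 2 in KO PSCs, 2 to 10 in organoids, 1 to 2 for the difference between fractions, 2 to 5 for A3, 21 to 25 for B4, 16 to 23 for A3 against B4, 18 to 23 for PSCs against organoids, 3 to 8 and 0 to 6 for PSCs with T12-LOH and T69A, 24 to 26 and 10 to 20 for T12-LOH and T69A organoids, and 0 to 4 for T6-LOH organoids with PSC5 lines. The cause of these changes was not tested. KO and WT libraries share no replicate number, so they could not be paired beyond the co-culture block. The labels match PSC and organoid fractions by the lines grown together, here called a culture. The WT fit of PSCs against organoids uses that pairing through its block, and the test of the KO effect between fractions does not. With culture as a block over the 22 libraries of 11 cultures with both fractions (chosen after seeing the data), that test again called 1 member, Aldoc. Single WT libraries per co-culture, and clones rather than libraries as the edited units, limit every KO comparison.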

Other observations

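Further pathway genes were read in the WT cell types, where 28.8% of all genes tested were higher and 27.3% lower in PSCs than in organoids. Of 31 other HIF and hypoxia genes 17 were higher and 4 lower, among them the collagen cross-linking oxidases Lox and Loxl2, the nitric oxide synthase Nos2 and the lysyl hydroxylase Plod1 (log2 3.11), all higher. Of 23 other glycolysis genes 5 were higher and 9 lower, with Slc2a10 higher and Pfkfb2 lower (-1.98). The KO effect differed between fractions for Rora (1.32, edgeR adjusted p = 0.0421), Hmox1 (0.90, adjusted p = 0.0431) and Arrdc4 (1.49, adjusted p = 0.0437), each more positive in PSCs. These were 2 of 31 other HIF and hypoxia genes and 1 of 5 glucose-sensing genes, against 0.315% of all genes. Rora was near the floor in organoids, at 0.399 ± 0.547 TPM with KO and 0.972 ± 1.65 TPM with WT PSCs (SD, n = 7 and 4).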
